A study of Arabidopsis thaliana with 32 samples.

Results

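The oxidative stress defence genes CSD1, CSD2, CAT3, AOX1A, GSTU4 and GSTF3 were followed through every comparison of a study of Arabidopsis thaliana roots. These 6 genes were found by gene identifier, as each entry of the authors' 11 comparison tables whose gene field held a member, and are 6 of the 4882 loci that these tables list. All 6 were listed, in 23 of 10961 entries, and each had a locus with no other gene name in it. Roots came from plate-grown seedlings in the Veggie plant unit, flown in orbit or kept on Earth in a chamber that repeated the conditions of the station with a delay. The plants were the wild type WS and sku5, a mutant whose roots skew on a surface, and roots were taken at 4 d or 8 d. This gave 8 groups of 4 samples: WS ground, WS spaceflight, sku5 ground and sku5 spaceflight at each age. Each sample is an average over pooled plants, with 5 to 8 roots in those taken at 4 d and 2 to 3 in those at 8 d. For flown 4 d roots, sku5 over WS was not analysed here.

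Respiration and stress leave superoxide and hydrogen peroxide in root cells, and several enzyme families remove them. Superoxide dismutases turn superoxide into hydrogen peroxide. CSD1 is the cytosolic and CSD2 the plastid enzyme that uses copper and zinc, and both messages are known targets of the microRNA miR398, which is made when copper is short. Catalases such as CAT3 break hydrogen peroxide down in peroxisomes. AOX1A, the mitochondrial alternative oxidase, passes electrons to oxygen around the later steps of the respiratory chain and is a standard marker of mitochondrial stress signals. Glutathione transferases such as GSTU4, of the tau class, and GSTF3, of the phi class, join glutathione to reactive or foreign compounds and are induced by many stresses.

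The miR398 sequences and their best pairing sites are shown because CSD1, CSD2 and another of the known target genes, COX5B-1, moved together in one comparison. They were read from RefSeq on the TAIR10.1 build, 5′ to 3′. In the microRNAs capitals mark the seed, bases 2 to 8. In the sites capitals mark bases in Watson-Crick pairs with the microRNA. miR398a-3p lies at chr2:1041012-1041032 on the plus strand, and miR398b-3p at chr5:4691107-4691127 on the plus strand, with miR398c-3p of the same sequence.
miR398a-3p: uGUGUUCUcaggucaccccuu
miR398b-3p: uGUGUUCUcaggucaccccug
CSD1: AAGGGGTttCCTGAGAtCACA
CSD2: tgcGGGTGACCTGgGAAaCAtA
COX5B-1: AAGGtGTGACCTGAGAAtCACA
CCS: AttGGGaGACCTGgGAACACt
The CSD1 site lies in the 5′ UTR across a 488-base intron, chr1:2827177-2827685 on the plus strand. The CSD2 site is in the coding sequence at chr2:12015572-12015593, plus strand. That of COX5B-1, for a subunit of cytochrome c oxidase, is in the 5′ UTR at chr3:5299204-5299225, plus strand. The site of CCS, the chaperone that loads copper into these dismutases, is in the coding sequence at chr1:4267521-4267541, minus strand. Each transcript was scanned for its lowest pairing penalty, counting 1 for a mismatch, 0.5 for a G:U pair and 1 for an extra base in the message. The penalty was 2.0 for COX5B-1, reached or bettered by 2 of 27438 genes, and 3.0 for CSD1, reached by 4. It was 4.0 for CSD2, reached by 37 genes, and 4.5 for CCS, reached by 138. CAT3, AOX1A, GSTU4 and GSTF3 had best windows of 6.0 to 7.0, as had up to 60.5% of all genes. These matches describe letters only.

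The deposited tables give a single FPKM value per group and locus and list only loci that the authors' Cuffdiff test called at a q-value under 0.05. No spread between samples can be shown, depth is unknown, and a gene absent from a table was either not called or not tested there. Errors below were taken as the ratio of the authors' log2 fold change to their score, a rough scale. For CSD1 in sku5 at 8 d the score was -1.80 and the authors' deposited p-value, from Cuffdiff, 0.0008. Intervals built on these errors are rough as well, and an interval that includes 0 does not show that effects are equal. Nothing in the labels says whether the pools came from separate plates, so q-values measure the spread between these pools. The number of loci the authors tested was recovered from their p- and q-values, and was 17365 to 18017 per table. A group's values differ between tables by a constant factor, so levels set across tables were put on a common scale that left at most 0.313% between tables sharing a group.

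Counted by comparison, the calls were spread over 10 of the 11 tables, and since the genes were chosen with results known the counts are a description. For spaceflight over ground, the authors' deposited tables called 2 of the 6 genes in WS at 4 d, where 0.715% of tested loci were called, and 4 in sku5 at 4 d, where 5.72% were. At 8 d they called 1 in WS, against 5.11% of loci, and 1 in sku5, against 9.22%. For 8 d over 4 d, 1 gene was called in WS on the ground, against 6.13% of loci in the authors' deposited table, and 3 in WS in spaceflight, against 6.08%. The sku5 age tables called 5 genes on the ground, against 5.75%, and 2 in spaceflight, against 9.96%. For sku5 over WS, 3 genes were called on the ground at 4 d, against 2.12%, and 1 in spaceflight at 8 d, against 7.94%. Cuffdiff called 0 of the 6 on the ground at 8 d, against 3.01%, and how many would pass an unadjusted threshold is not known from tables of called loci.

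**Figure D1:**
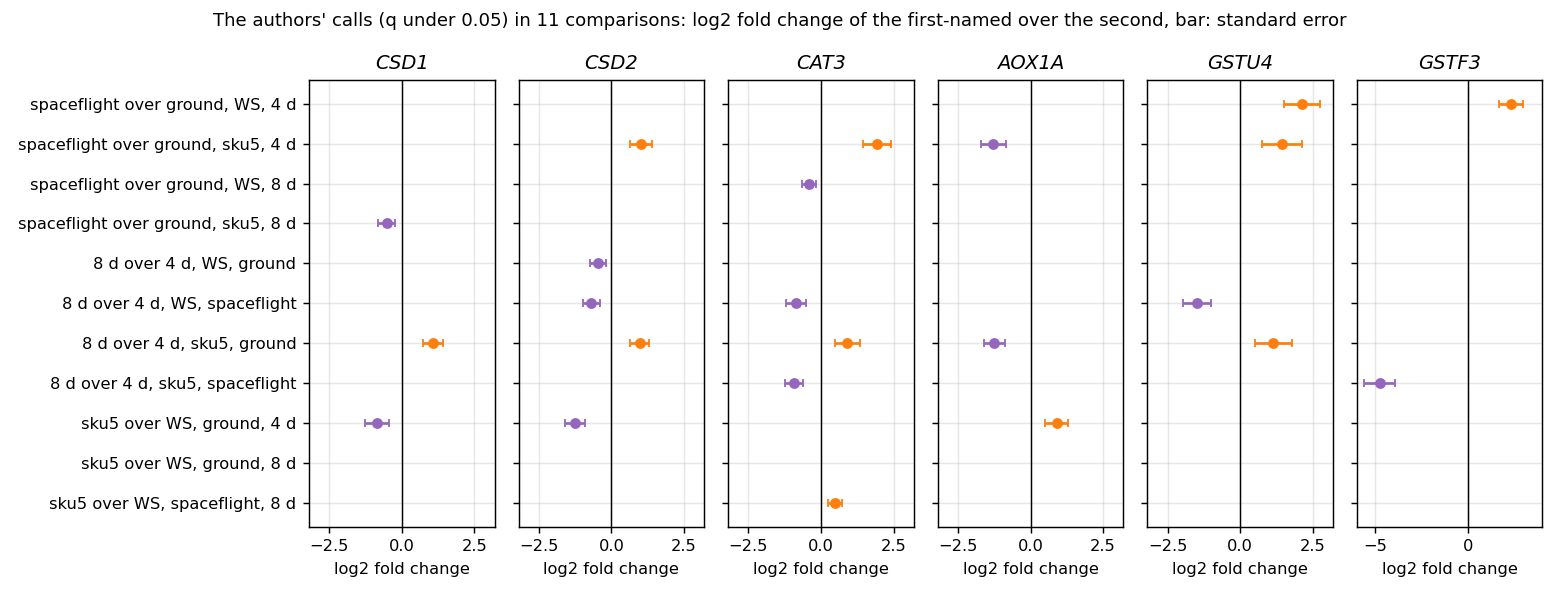
The authors' log2 fold changes with their standard errors (bars) for the 23 calls of 6 genes, by comparison, with the first-named group over the second; no point means that the gene is not listed there, and GSTF3 has a wider axis. AOX1A points opposite to CSD1 and CSD2 wherever it shares a table with them, and GSTF3 in sku5 in spaceflight reaches -4.76.

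CSD1 (AT1G08830, chr1:2827060-2829315) had its lowest level in ground-grown sku5 at 4 d. On the common scale its FPKM was 122 in sku5 ground at 4 d, 221 in WS ground at 4 d, 257 in sku5 ground at 8 d and 179 in sku5 spaceflight at 8 d, with no value for the other groups. Ground-grown sku5 roots were therefore low at 4 d and high at 8 d, and flown sku5 roots at 4 d have no value. In the authors' deposited table for sku5 over WS on the ground at 4 d, CSD1 was 117 against 212 FPKM, 1.80-fold lower (log2 fold change -0.85, SE 0.41, Cuffdiff q = 0.00966). It rose from 120.2 FPKM at 4 d to 252 at 8 d in sku5 on the ground (log2 1.07, SE 0.35, Cuffdiff q = 0.00209 in the authors' deposited table). In sku5 at 8 d CSD1 was 190 FPKM in spaceflight and 272 on the ground in the authors' deposited table, 1.44-fold lower (SE 0.29 on log2, Cuffdiff q = 0.0130). The authors' locus for CSD1 spans 24780 bases under this name alone, while the reference gene has 2256, so reads from other transcripts in that stretch may be in its value. Of all 4458 loci with a single gene, 583 are longer than 10 kb.

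CSD2 (AT2G28190, chr2:12014412-12016569), the plastid partner, also had its lowest listed level in sku5 ground at 4 d. The rest of its course was not that of CSD1. From WS ground at 4 d to sku5 ground at 8 d, CSD1 stood higher (221 and 257 FPKM) and CSD2 lower (158 and 129), groups that no table compares. Its common-scale FPKM was 66.1 in sku5 ground at 4 d, far under the 105 to 170 of the other 6 groups with a value. Among WS roots it was 158 on the ground and 170 in spaceflight at 4 d, and 115 and 105 at 8 d, so WS was high when young and lower when older in both environments. In sku5 it was 134 in spaceflight at 4 d and 129 on the ground at 8 d. The genotypes differed on the ground at 4 d by 2.39-fold in the authors' deposited table, 63.3 FPKM in sku5 and 151 in WS (log2 -1.25, SE 0.35, Cuffdiff q = 0.00558). Spaceflight raised it 2.03-fold in sku5 at 4 d (log2 1.02, SE 0.38, Cuffdiff q = 0.00207 in the authors' deposited table). In WS at 4 d the spaceflight table does not list it, and its common-scale levels there were 1.08-fold apart.

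On the ground, CSD2 went opposite ways with age in the genotypes, and no table lists it for age in flown sku5. From 4 d to 8 d it fell in WS on the ground from 160 to 117 FPKM (log2 -0.46, SE 0.27, Cuffdiff q = 0.0263) in the authors' deposited table. The same step in WS in spaceflight took it from 162 to 100 FPKM (log2 -0.69, SE 0.29, Cuffdiff q = 0.00218) in the authors' deposited table. In sku5 on the ground it rose from 64.9 to 127 FPKM (log2 0.97, SE 0.31, Cuffdiff q = 0.00209) in the authors' deposited table. The age effect on the ground was higher in sku5 than in WS by 1.42 on the log2 scale (SE 0.41, approximate 95% interval 0.61 to 2.23), a pair of tables compared after seeing the data. As these are 2 calls of opposite sign, an interval without 0 adds little to them. Within WS the age effects in spaceflight and on the ground differed by -0.24 (SE 0.40), with an interval that includes 0.

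**Figure D2:**
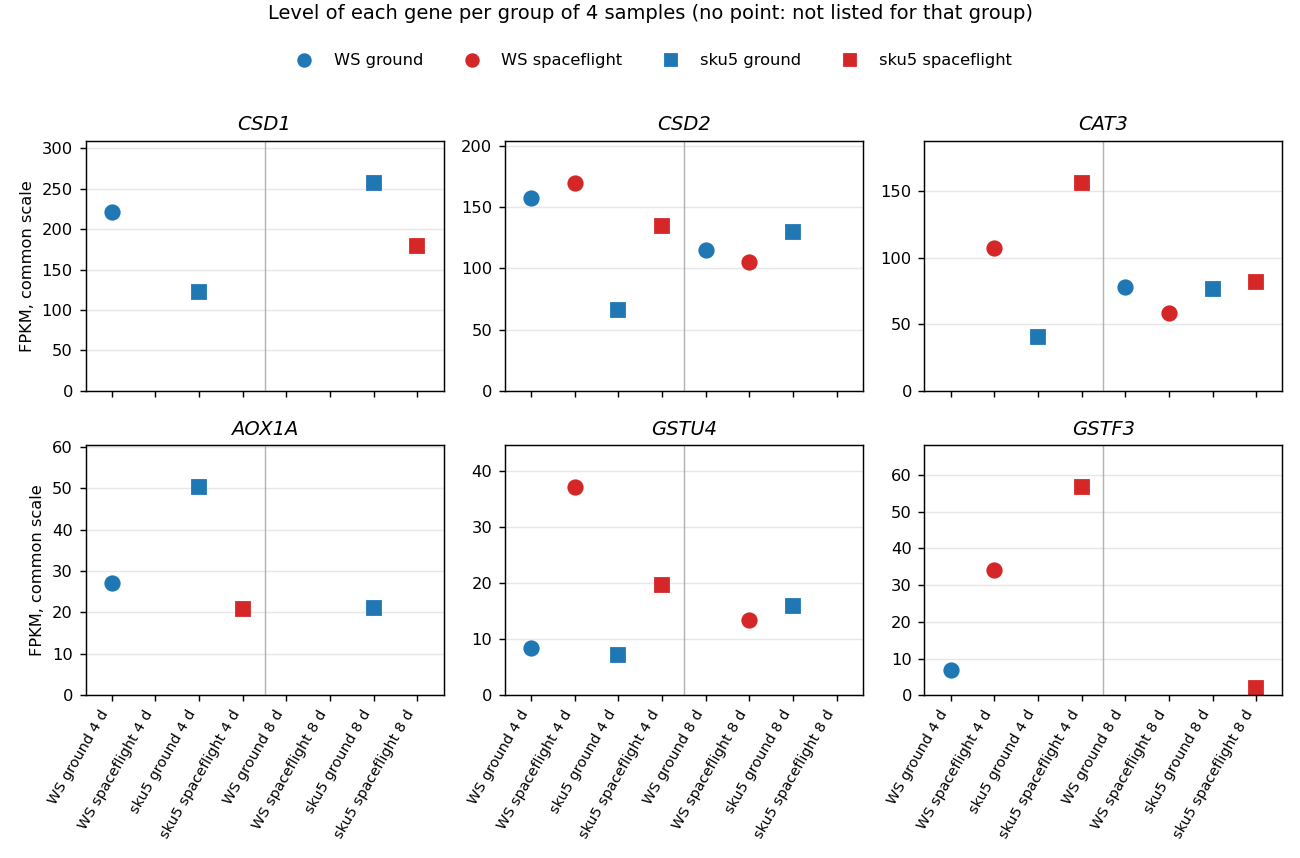
FPKM on the common scale (linear axes from 0) for 6 genes in 8 groups, each point 1 value for 4 samples, with no error available; circles are WS, squares sku5, blue ground and red spaceflight, and a missing point means that no table lists the gene for that group. Sku5 ground at 4 d is the lowest listed group for CSD1, CSD2, CAT3 and GSTU4 and the highest for AOX1A.

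The other dismutases and copper genes were read from lists chosen with earlier results known. For sku5 over WS on the ground at 4 d, 4 loci of the 23-gene copper and miR398 list were called, 3 lower and 1 higher, beside 198 lower and 183 higher among the 2.12% of tested loci called, in the authors' deposited table. The 3 lower were CSD2, CSD1 and COX5B-1, all with the pairing sites printed above. COX5B-1 was 85.1 FPKM in sku5 and 137 in WS (log2 -0.69, Cuffdiff q = 0.00966) in the authors' deposited table, its only call. CCS was listed in none of the 11 tables. The higher one was a merged locus of FRO4 and FRO5, root reductases of the family that serves copper and iron uptake, at 54.6 against 29.8 FPKM (log2 0.88) in the authors' deposited table. It fell 1.68-fold from 4 d to 8 d in sku5 on the ground and 2.04-fold in spaceflight over ground in sku5 at 4 d, according to the authors' deposited tables. At 8 d the merged locus was also called, higher in sku5 than in WS on the ground (log2 0.41). In sku5 at 8 d it was lower in spaceflight than on the ground (log2 -0.73), in the authors' deposited tables.

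COPT1 and COPT2, which encode copper transporters, were not called in any table that holds sku5 ground at 4 d. FSD1, the iron dismutase known to stand in for the copper enzymes when copper is short, was called only with age. It rose 1.60-fold from 1254 to 2011 FPKM in sku5 on the ground, and 1.43-fold in WS on the ground, in the authors' deposited tables. Its level on the same FPKM scale was far above those of CSD1 and CSD2. FSD3, a plastid iron dismutase, was in a merged locus that rose from 25.1 to 44.9 FPKM with spaceflight in sku5 at 4 d, according to the authors' deposited table. MSD2, annotated as a manganese dismutase, was 44.9 FPKM in WS ground at 4 d and is listed at 0 at 8 d in the authors' deposited table. The precursor gene MIR398A shares a locus with the phosphatase gene PAP9 and their values cannot be separated. That locus was lower in each of its 4 calls and was not called for sku5 over WS on the ground at 4 d. It fell from 15.2 to 4.09 FPKM with age in sku5 on the ground, where CSD1 and CSD2 rose, and from 17.2 to 4.15 FPKM with age in flown sku5, where neither is listed, according to the authors' deposited tables. Spaceflight lowered it in WS at 4 d from 19.1 to 5.37 FPKM by the authors' deposited table, where neither CSD1 nor CSD2 was called. For sku5 over WS on the ground at 8 d it was 4.36 against 15.9 FPKM by the authors' deposited table, and neither CSD1 nor CSD2 was called.

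CAT3 (AT1G20620, chr1:7142972-7146540) was called in 6 tables, more than any other of these genes. Its common-scale FPKM was 156 in sku5 spaceflight at 4 d, 107 in WS spaceflight at 4 d and 40.7 in sku5 ground at 4 d. At 8 d it was 82.0 in sku5 spaceflight, 78.0 in WS ground, 76.7 in sku5 ground and 58.5 in WS spaceflight, and no table gives WS ground at 4 d. The extremes were thus the flown and the ground-grown sku5 roots of the same age, while the 8 d groups lay between them. Spaceflight raised CAT3 3.85-fold in sku5 at 4 d, from 38.4 to 148 FPKM (log2 1.94, SE 0.49, Cuffdiff q = 0.00207) in the authors' deposited table. In WS at 8 d it was 1.33-fold lower in spaceflight (log2 -0.41, SE 0.23, Cuffdiff q = 0.0162 in the authors' deposited table). At 8 d in spaceflight sku5 exceeded WS 1.40-fold, 86.6 against 61.8 FPKM (SE 0.24 on log2, Cuffdiff q = 0.00642), in the authors' deposited table.

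The direction of the age effect on CAT3 in sku5 depended on the environment. On the ground it rose from 40.0 to 75.3 FPKM (log2 0.91, SE 0.42, Cuffdiff q = 0.0113) and in spaceflight it fell from 159 to 83.1 FPKM (log2 -0.93, SE 0.31, Cuffdiff q = 0.00125), in the authors' deposited tables. The effect in spaceflight was lower than on the ground by 1.84 on the log2 scale, a difference of -1.84 (SE 0.52, approximate 95% interval -2.86 to -0.82), from tables that share no samples. Both effects are calls and their signs are opposite, so an interval without 0 follows largely from the calls and adds little to them. In WS in spaceflight it also fell, from 102 to 55.8 FPKM (log2 -0.87, SE 0.34, Cuffdiff q = 0.00218), in the authors' deposited table. The flown genotypes' age effects differed by -0.06 (SE 0.46), an interval that reaches well to both sides of 0. CAT2, the catalase of photosynthetic tissue, was called once, falling from 234 to 108 FPKM with age in sku5 in spaceflight, in the authors' deposited table.

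Other peroxide-removing enzymes gave a mixed picture. Among the 49 genes searched for dismutases, catalases, the ascorbate-glutathione cycle and thiol peroxidases, 22 were listed in some table. Over all loci, 4882 were listed, with 17365 to 18017 tested per table. In sku5 at 4 d, spaceflight over ground, 5 were higher and 1 lower according to the authors' deposited table, where 600 of 1007 called loci were higher. That was 12.2% of these 49 genes, chosen with earlier results known, against 5.72% of tested loci. PRXIIC, a cytosolic type II peroxiredoxin, rose there from 383 to 1706 FPKM, and its relative PRXIID from 63.9 to 128 FPKM, according to the authors' deposited table. These are close gene copies, so the split of reads between them is uncertain. PRXIIC then fell from 1832 to 371 FPKM with age in flown sku5, in the authors' deposited table, as CAT3 did. The 1 lower gene was GPX2, a glutathione peroxidase-like enzyme, at 290 against 409 FPKM according to the authors' deposited table. In sku5 at 8 d, spaceflight over ground, 6 were lower and 3 higher, against 1108 lower and 540 higher over all called loci in the authors' deposited table. That was 18.4% of the 49 genes, against 9.22% of tested loci. GPX2, GPX5, GPX6 and GPX8 were all among the lower ones, with GPX8 at 296 against 454 FPKM according to the authors' deposited table. DHAR1, which regenerates ascorbate and shares a merged locus, rose with age in 3 of 4 age tables, from 284 to 584 FPKM in sku5 on the ground in the authors' deposited table.

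AOX1A (AT3G22370, chr3:7906521-7908746) ran opposite to the dismutases. Its common-scale FPKM was 50.3 in sku5 ground at 4 d, against 27.0 in WS ground at 4 d, 21.1 in sku5 ground at 8 d and 20.7 in sku5 spaceflight at 4 d. One group stood at about double the level of the others, whose own range was narrow. By the authors' deposited table, sku5 exceeded WS on the ground at 4 d 1.86-fold, 48.1 against 25.8 FPKM (log2 0.90, SE 0.39, Cuffdiff q = 0.00558). Spaceflight lowered it 2.43-fold in sku5 at 4 d, from 47.5 to 19.6 FPKM (log2 -1.28, SE 0.42, Cuffdiff q = 0.00207), in the authors' deposited table. From 4 d to 8 d it fell 2.38-fold in sku5 on the ground (log2 -1.25, SE 0.36, Cuffdiff q = 0.00209) in the authors' deposited table. All 3 calls share the 4 samples of sku5 ground at 4 d and are not independent of each other. The neighbouring gene AOX1B, the closest of 4 relatives with 74.2% identical coding bases, and the other relatives AOX1C and AOX1D were not called, while AOX2 was called once in a merged locus, falling from 62.5 to 44.5 FPKM with age in WS in spaceflight, in the authors' deposited table.

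The promoter of AOX1A is shown because it holds copies of the mitochondrial dysfunction motif (CTTG, 5 bases of any kind, CA, any base, G), through which mitochondrial signals are known to reach this gene by way of NAC factors such as ANAC013. Searched on both strands from 250 bases before to 50 after each gene's start, this motif was in 2.14% of 27443 promoters. AOX1A had 2 copies, and the other 5 genes had 0 in that window. One copy begins 3 bases before the annotated start of AOX1A and runs across it, and the other begins at base 25 of the gene. The first lies at chr3:7906510-7906538 and the second at chr3:7906537-7906565, plus strand, TAIR10.1, RefSeq, with the motif in capitals and 8 bases on each side.
first copy: atctagctCTTGGCGACCACGcaagtatc
second copy: tcttccatCTTGCTCTCCAAGaaaaatct
ANAC013 itself went the other way from AOX1A in sku5 at 4 d, rising with spaceflight from 3.64 to 11.9 FPKM (log2 1.72, Cuffdiff q = 0.0225) in the authors' deposited table. UGT74E2, a glucosyltransferase often listed with AOX1A as a marker of mitochondrial stress, was called in 6 tables but not in spaceflight over ground in sku5 at 4 d. It fell with age in all 4 age tables, from 7.02 to 1.74 FPKM in sku5 on the ground, in the authors' deposited table. HSP23.5, a small mitochondrial heat shock protein, fell from 16.9 to 8.11 FPKM in that same comparison, in the authors' deposited table. Of 15 genes in this list 5 were listed anywhere, beside 4882 of all loci, with 17365 to 18017 tested per table. In sku5 on the ground with age all 3 that were called fell, beside 505 lower and 514 higher among the 5.75% of tested loci called, in the authors' deposited table.

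GSTU4 (AT2G29460, chr2:12626478-12627891) rose in spaceflight at 4 d in both genotypes. Its common-scale FPKM was 37.1 in WS spaceflight and 19.7 in sku5 spaceflight at 4 d, against 8.39 in WS ground and 7.18 in sku5 ground at that age. At 8 d it was 15.9 in sku5 ground and 13.3 in WS spaceflight. No table gives WS ground or sku5 spaceflight at 8 d. Among the 6 groups with a value the flown 4 d roots were highest and the ground-grown 4 d roots lowest, although no table compares flown sku5 at 4 d with sku5 ground at 8 d. In WS the rise was 4.41-fold, from 7.84 to 34.6 FPKM (log2 2.14, SE 0.63, Cuffdiff q = 0.0113), in the authors' deposited table, the 8th largest of 58 finite rises there. In sku5 it was 2.74-fold, from 6.77 to 18.6 FPKM (log2 1.46, SE 0.69, Cuffdiff q = 0.00529), in the authors' deposited table. The sku5 effect minus the WS effect was -0.69 (SE 0.93, approximate 95% interval -2.51 to 1.14). The interval includes 0, but its error is only a rough scale, so it cannot decide whether the genotypes differ. With age it fell 2.79-fold in WS in spaceflight (log2 -1.48, SE 0.47, Cuffdiff q = 0.00218) in the authors' deposited table. In sku5 on the ground it rose 2.22-fold with age (log2 1.15, SE 0.65, Cuffdiff q = 0.0202) in the authors' deposited table.

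GSTU4 lies in a row of 7 tau class genes, GSTU7 to GSTU1, that spans 14.6 kb on the minus strand of chromosome 2, and its neighbours often went the other way. GSTU5, which starts 687 bases away and shares 74.4% of coding bases with it, had 58.4 FPKM in sku5 ground and 25.0 in sku5 spaceflight at 4 d in the authors' deposited table. It thus fell 2.34-fold (log2 -1.22, Cuffdiff q = 0.00207, the authors' deposited table) where GSTU4 rose. From 4 d to 8 d in sku5 on the ground GSTU5 fell from 60.7 to 23.7 FPKM, again opposite to GSTU4, in the authors' deposited table. GSTU7 fell there as well, from 108 to 65.4 FPKM according to the authors' deposited table. With age in flown WS, GSTU5 fell from 30.2 to 18.3 FPKM, as GSTU4 did, in the authors' deposited table. A merged locus of GSTU1 and GSTU2, whose coding bases are 83.9% and 83.6% identical to those of GSTU4, fell with spaceflight in sku5 at 4 d from 76.8 to 48.3 FPKM according to the authors' deposited table, and rose with age in flown WS, where GSTU4 fell, from 40.7 to 79.1 FPKM. GSTU3, 81.6% identical, was not listed. How the authors' counting shared reads among such copies is not stated, so the split between them is uncertain.

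GSTF3 (AT2G02930, chr2:851156-852321) had the widest range of the 6 genes. Its common-scale FPKM was 56.7 in sku5 spaceflight at 4 d, 34.3 in WS spaceflight at 4 d, 6.87 in WS ground at 4 d and 2.09 in sku5 spaceflight at 8 d. Both flown groups at 4 d were high, and the highest stood 27.1-fold over the lowest. In WS at 4 d spaceflight raised it 4.98-fold, from 6.42 to 32.0 FPKM (log2 2.32, SE 0.66, Cuffdiff q = 0.0113), in the authors' deposited table, the 4th largest of 58 finite rises. In flown sku5 it fell from 57.5 FPKM at 4 d to 2.12 at 8 d (log2 -4.76, SE 0.85, Cuffdiff q = 0.00125) in the authors' deposited table, the 24th largest of 1070 finite falls. No table that holds sku5 ground at 4 d lists it. Its copy GSTF2 has 94.5% identical coding bases and was not listed, so reads of both may stand behind the value given for GSTF3. Among the other phi class genes, GSTF6 fell from 119 to 19.7 FPKM with age in flown WS (log2 -2.59, Cuffdiff q = 0.0413) in the authors' deposited table. GSTF8 fell with age in WS on the ground from 1136 to 858 FPKM, and GSTF11 rose 2.09-fold with age in flown sku5, in the authors' deposited tables. GSTF9 and GSTF10 share a merged locus that rose with age in flown sku5 from 2462 to 3355 FPKM according to the authors' deposited table. GSTF14, which has 2 loci in the tables, rose with age in all 4 age tables, from 100 to 402 FPKM at the higher locus in sku5 on the ground in the authors' deposited table.

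**Figure D3:**
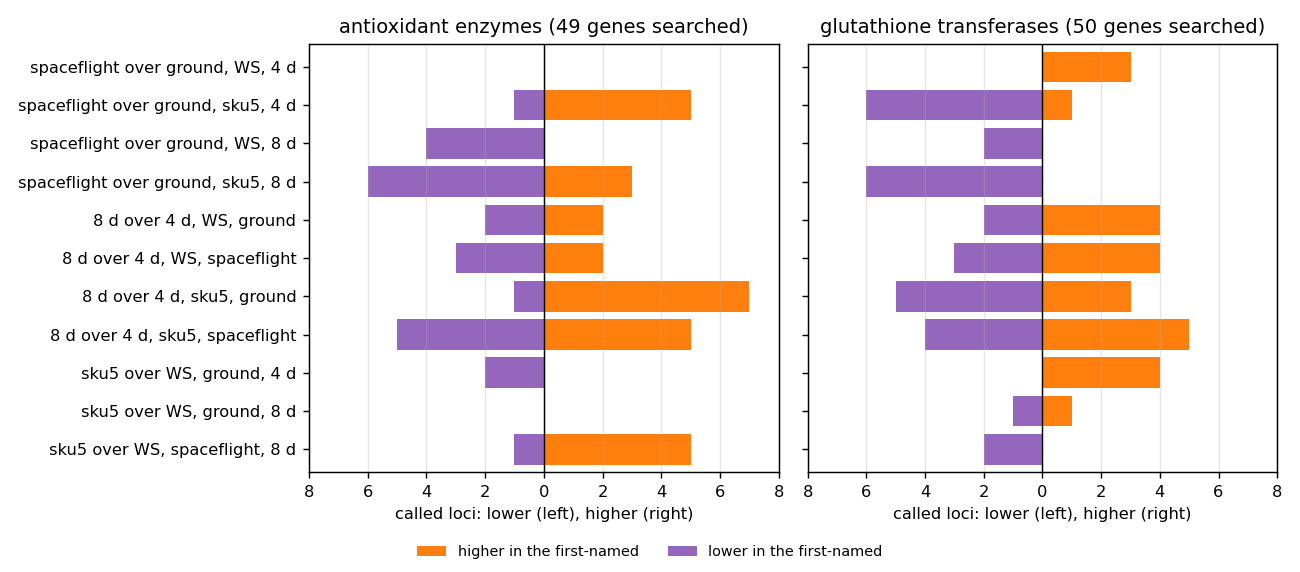
Called loci among 49 antioxidant enzyme genes (left) and 50 glutathione transferase genes (right) in each comparison, with loci higher in the first-named group to the right of 0 and lower ones to the left. Transferases were 3 higher and 0 lower for spaceflight in WS at 4 d, and 1 higher and 6 lower for spaceflight in sku5 at 4 d.

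Over the 50 glutathione transferase genes searched, 21 were listed in some table, beside 4882 of all loci, with 17365 to 18017 tested per table. With spaceflight at 4 d the called transferases were higher in WS and mostly lower in sku5. In WS at 4 d, 3 were called, 6% of the 50, and all 3 were higher in the authors' deposited table. They were GSTU4, GSTF3 and GSTU12, the last at 7.14 FPKM in spaceflight and listed at 0 on the ground. GSTU4 and GSTF3 are members chosen with results known, so GSTU12 was the only further call. All called loci there, 0.715% of those tested, were 63 higher and 65 lower according to the authors' deposited table. In sku5 at 4 d, 7 loci were called, 6 of them lower, against 407 lower of 1007 called loci, 5.72% of those tested, in the authors' deposited table. GSTU4 was the 1 that rose, and counted by gene 16% of the 50 were called. The lower ones included GSTL1, of the lambda class, from 96.2 to 31.0 FPKM, GSTU24 from 359 to 164 FPKM, GSTU9 from 77.1 to 33.8 FPKM and GSTU19 from 1621 to 1028 FPKM, according to the authors' deposited table. At 8 d, spaceflight over ground gave 0 higher and 6 lower in sku5 and 0 higher and 2 lower in WS, in the authors' deposited tables. All called loci were 540 higher and 1108 lower in sku5 (9.22% of those tested), and 410 higher and 478 lower in WS (5.11%), by the authors' deposited tables. Of the 50 transferase genes, 12% were called in sku5 and 4% in WS. GSTU9 was lower in both, at 41.2 against 62.8 FPKM in sku5 and 43.4 against 61.3 FPKM in WS, in the authors' deposited tables. The count of 0 higher is of Cuffdiff calls, and those at an unadjusted threshold are not known.

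For sku5 over WS on the ground at 4 d, 4 transferases were called and all 4 were higher, while the 2 antioxidant enzymes called, CSD1 and CSD2, were lower. Over all loci, 183 were called higher and 198 lower, 2.12% of those tested, in the authors' deposited table. GSTU5 was 59.2 against 24.7 FPKM, GSTU24 364 against 157, GSTU9 78.2 against 43.4 and GSTU7 105 against 64.8 in the authors' deposited table. The genes raised in sku5 thus included AOX1A and tau class transferases but not GSTU4, and GSTF3 has no value in sku5 ground at 4 d. GSTU4 stood 1.17-fold lower in sku5 on the common scale and is not listed in that table. The sequence TGACG, bound by TGA factors known to induce tau class transferases, occurred on either strand in the promoters of GSTU5 (1 copy), GSTU7 (3), GSTU9 (2), GSTU24 (1) and GSTF3 (1), with 0 in GSTU4. CSD1, lower in this comparison, had 2 copies, and CSD2, CAT3 and AOX1A had 0. GSTU1 (2), GSTU3 (1) and GSTU6 (1) held TGACG without a call there. TGACG was in 23.1% of all 27443 promoters and in 20 of 50 transferase promoters, 40.0%, so these letters are common.

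**Figure D4:**
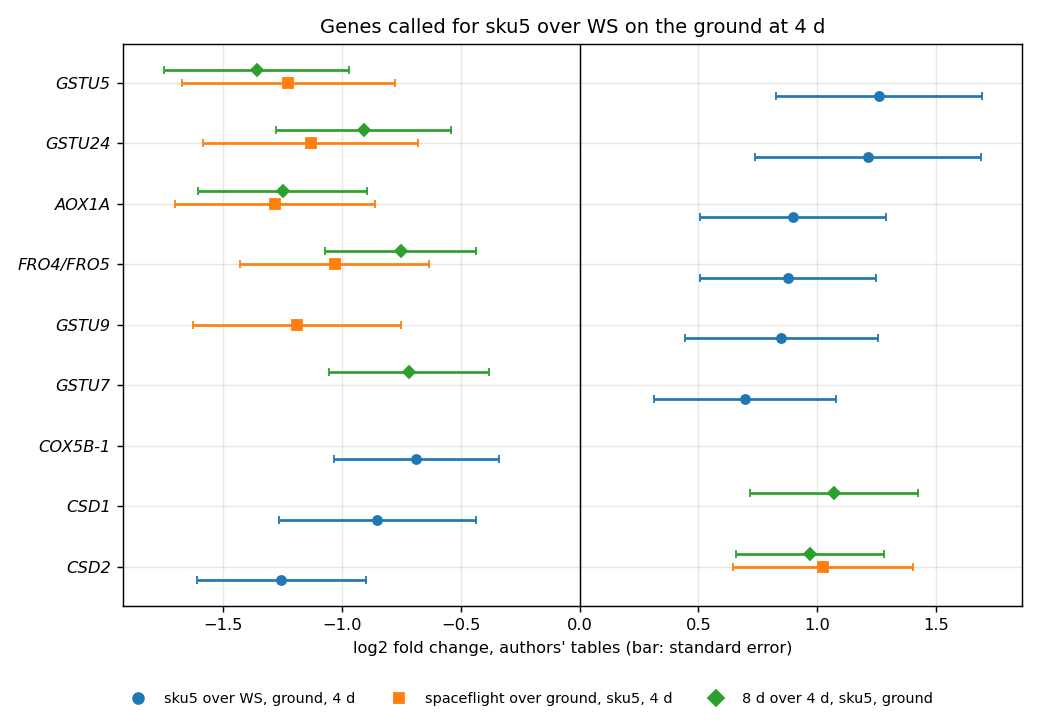
The authors' log2 fold changes with standard errors (bars) for the 9 loci of the antioxidant, transferase, copper and alternative respiration lists called for sku5 over WS on the ground at 4 d, with the same loci in the tables for spaceflight over ground in sku5 at 4 d and for 8 d over 4 d in sku5 on the ground where listed. The last 2 sets have sku5 ground at 4 d as their denominator and the first has it as its numerator, so opposite signs rest on the same 4 samples.

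Sku5 ground at 4 d thus recurred in the results. Of the 23 calls of the 6 genes, 12 were in the 3 tables that hold this group, against 2407 of 10961 entries over all loci, in the authors' deposited tables. With these left out, 11 calls remain, and AOX1A has none. The 3 tables share samples, so a level that stands apart in this group appears in each of them. CSD1, CSD2, CAT3 and GSTU4 had their lowest listed level there and AOX1A its highest, but only for CSD1, CSD2 and AOX1A is the contrast with WS of the same age and environment itself called. For the level next to it, 179 FPKM for CSD1 in sku5 spaceflight at 8 d, 105 for CSD2 and 58.5 for CAT3 in WS spaceflight at 8 d, no table compares the pair of groups.

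Markers of other material moved with these groups. Of 13 seed reserve genes 8 were listed anywhere. On the common scale their summed FPKM was 3.04 in sku5 ground at 4 d over 3 genes with a value, of which SESA3 is listed at 0, and 6773 in sku5 spaceflight at 4 d over 7 genes. In WS at 4 d it was 336 on the ground and 723 in spaceflight, over 6 genes each. At 8 d the sums were 0 in WS ground over 5 genes and 0 in WS spaceflight over 4. They were 3.72 in sku5 ground over 5 genes and 258 in sku5 spaceflight over 7. These sums cover different genes, as GEA6, CRA1 and CRU3 have no value in WS at 8 d. CRU3 and CRA1, at 2493 and 2113 FPKM in sku5 spaceflight at 4 d, have no value in sku5 ground or WS at 4 d. GEA6, PAP85 and SESA3 have a value in both sku5 groups at 4 d. They were 2.17, 0.869 and 0 FPKM on the ground, and 1275, 384 and 70.1 in spaceflight. In sku5 spaceflight at 8 d CRU3 was 107 FPKM and CRA1 79.9. Green tissue markers, 5 of 11 listed, summed to 552 in WS spaceflight and 255 in WS ground at 4 d over the same 5 genes. They summed to 235 and 224 in sku5 ground and spaceflight at 4 d, over 3 and 4 genes, and to 70.3 to 107 at 8 d. Root markers, 8 of 12 listed, summed at 4 d to 140 and 62.8 in WS ground and spaceflight over 4 and 3 genes, and to 183 and 121 in sku5 ground and spaceflight over 3 genes each. At 8 d the sums were 250.3 and 92.1 in WS and 693 and 485 in sku5, over 3 to 7 genes, and none was listed at 0. These sums too cover different genes. In WS at 4 d, PER44, at 119 FPKM on the ground, has no value in spaceflight. WER, at 42.8 FPKM in spaceflight at 4 d, has none on the ground. SCR and NRT2.1, with values in both, were higher in flown WS at 4 d and lower at 8 d. CASP1, at 154 FPKM in WS ground at 8 d, has no value in flown WS. With spaceflight in WS, Cuffdiff called 0 root markers at 4 d, against 0.715% of tested loci, and 0 at 8 d, against 5.11%. How many would pass an unadjusted threshold is not known. With spaceflight in sku5, 0 root markers were called higher and 2 lower at 4 d, and 0 higher and 4 lower at 8 d (median log2 -0.74), by Cuffdiff in the authors' deposited tables, with calls at an unadjusted threshold not known. Over all loci, 600 were called higher and 407 lower at 4 d, 5.72% of those tested. At 8 d 540 were called higher and 1108 lower, 9.22% of those tested (median log2 -0.50). The part of these materials in the levels of CSD2, CAT3, GSTU4, GSTF3 and PRXIIC was not tested. In whole roots, fewer cells of a kind and less RNA per cell cannot be told apart.

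Genes with calls most like those of each member were found by the share of tables with a call of the same sign over all tables with a call for either gene. For CSD1 the closest single-gene locus was SPR1 (AT2G03680), a microtubule-associated gene of helical root growth, with 3 of 3 calls shared and a level that fell from 1311 to 849 FPKM in sku5 over WS on the ground at 4 d, in the authors' deposited table. Next came AGP1, an arabinogalactan protein gene, with 3 of 4. For CSD2 it was AT1G13340, with 5 of 6, which rose from 2.48 to 85.6 FPKM with spaceflight in sku5 at 4 d according to the authors' deposited table, then the tetraspanin gene TET4 with 4 of 5. For CAT3 it was ACHT4, a thioredoxin gene, with 5 of 6, then AT5G63190 with 4 of 6. AOX1A shared 3 of 3 calls with 16 loci, of which AT1G29025 and AT2G32020 were closest in size of change. For GSTU4 it was PDF1, an epidermal gene, with 4 of 5, at 108.7 FPKM in WS ground and 283 in WS spaceflight at 4 d in the authors' deposited table, then GLYI7, of the glyoxalase I family, with 3 of 4. GSTF3, with 2 calls, was left out of this search.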

How the data were processed

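RNA of 32 root samples was sequenced by the authors, and 11 Cuffdiff comparison tables were used. Tools in the submitters' processing notes are Cuffdiff, Cufflinks, STAR 2.5.1b, Trimmomatic 0.36, Picard and FastQC 0.11.2; roles and genome build are not given in the sources used here. Per the file headers the authors give an FPKM value for each group and locus, a log2 fold change, a test score, and a p-value and q-value. The authors' p-values come in steps of 5e-05, and every deposited locus has a q-value under 0.05. Depth per sample is unknown.

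Ground, 4 d and WS were made the denominators. The number of loci tested was recovered as q-value times rank over p-value, and the median log2 ratio over loci shared by 20 pairs of tables gave the common scale. Both steps were tried on simulated data, where 11 of 11 numbers tested were recovered. Those data were built with the same formulas and without noise in the levels, so recovery tests only the code. In the authors' own values, the number recovered from each locus lay within 0.0743 of the number taken for its table. No test of single samples was possible, and the authors' calls were used. Differences of effects were formed only for genes called in both tables, and were called where an approximate 95% interval left out 0. The authors' coordinates overlap the reference gene of the same name for 6.21% of 4446 loci, so coordinates are from TAIR10.1 and the builds were never mixed. Levels of loci at 0 are given as listed.

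The members and all gene lists were chosen with earlier results of these data known. Besides the members, the text names up to 4 genes per list by number of calls, all further dismutases, catalases, alternative oxidases, phi class transferases and miR398 genes called, and the genes most alike; GSTU7, GSTU12, GSTU19, GSTU24, GPX5, GPX6 and the neighbours of GSTU4 were named after their values were seen. Coding identity is matching bases over the longer coding sequence. Python 3.11.15, pandas 2.3.3, numpy 2.4.6, Biopython 1.88 and matplotlib 3.10.9 were used.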

Additional observations from a re-analysis of the deposited data

Results flagged for a closer look

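The effect of age on CSD2 on the ground differed between the genotypes. In the authors' deposited tables it fell from 4 d to 8 d in WS (log2 -0.46, SE 0.27) and rose in sku5 (log2 0.97, SE 0.31), and the sku5 effect minus the WS effect was 1.42 (SE 0.41). The pair was compared after the values were seen.

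For CAT3 in sku5 the effect of age differed between environments. It rose on the ground (log2 0.91, SE 0.42) and fell in spaceflight (log2 -0.93, SE 0.31) in the authors' deposited tables, and the spaceflight effect minus the ground effect was -1.84 (SE 0.52). Such differences were formed only for genes called in both tables, 5 pairs for the 6 genes. These 2 are the pairs whose calls have opposite signs, so that their approximate 95% intervals leave out 0 follows largely from the calls and adds little to them. For other genes of the lists, 5 of 67 pairs had an interval without 0. Both flagged pairs include sku5 ground at 4 d, where seed reserve markers summed to 3.04 FPKM on the common scale, over 3 genes with a value. The part of these markers was not tested. Outlying samples could not be searched for without values per sample.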

How the results depend on the processing

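The 23 calls of the 6 genes became 16 at q under 0.01, 12 at a change of at least 2-fold, 11 without the tables that hold sku5 ground at 4 d and 17 without those that hold sku5 spaceflight at 4 d; the last 2 settings were chosen after seeing the data. The 110 calls over antioxidant and transferase lists became 73 at q under 0.01 and 42 at 2-fold or more. Comparisons in which most called loci were higher went from 3 to 5 at 2-fold or more. The 2 differences of effect became 0 at q under 0.01 in both tables and 0 at 2-fold or more in both, since fewer pairs stay called. The highest and lowest groups of each gene were the same under both scalings tried. Leaving out merged loci or requiring an FPKM of at least 1 kept all 23 calls. The cause of the rise from 3 to 5 comparisons was not tested; stricter limits on q or fold, and fewer tables, admit fewer calls by construction. No paired analysis was possible because the tables hold 1 value per group and no value per library; the fits with the replicate number as a block and without each replicate were not run. Depth cannot be stated, so whether an unlisted gene was too low to test is not known.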

Other observations

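Further genes of the lists moved in flown sku5 at 8 d. MDAR3 and SAPX, enzymes of the ascorbate cycle, were higher in spaceflight than on the ground there, MDAR3 at 41.9 against 28.1 FPKM and SAPX at 147 against 118 FPKM (Cuffdiff q = 0.0247 and 0.0242, authors' deposited table). LAC3, a copper-containing laccase, fell with spaceflight in sku5 at 4 d from 15.5 to 7.59 FPKM, in WS at 8 d from 20.4 to 9.85 FPKM and in sku5 at 8 d from 26.6 to 16.7 FPKM, according to the authors' deposited tables. LAC4, the laccase of lignifying vessels, rose with age in sku5 in both environments, from 6.15 to 13.2 FPKM on the ground (log2 1.11, Cuffdiff q = 0.00209, authors' deposited table). CCH, a copper chaperone, fell with age in sku5 on the ground from 1554 to 1086 FPKM, and COPT2 was 107 FPKM in flown and 222 FPKM in ground-grown sku5 at 8 d, according to the authors' deposited tables. The copper and miR398 list had 0 higher and 6 lower loci for spaceflight in sku5 at 8 d by Cuffdiff, among them CSD1, beside 540 higher and 1108 lower among the 9.22% of tested loci called, and calls at an unadjusted threshold are not known. ZIP2, a metal transporter of roots, was another of these, at 161 against 221 FPKM according to the authors' deposited table. GSTL3 rose with age in WS on the ground from 35.6 to 65.5 FPKM while GSTL1, its neighbour in the lambda class, fell from 67.8 to 18.4 FPKM, according to the authors' deposited table.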
